A study of Mus musculus with 4 samples.

Results

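The 10 genes described here encode the machinery that mouse neutrophils use to import cystine, make glutathione and dispose of peroxides: Slc7a11, Slc3a2, Gclc, Gclm, Gsr, Gpx1, Gpx4, Txnrd1, Srxn1 and Sod2. They were chosen by symbol, and all 10 were found among the 18894 genes of the tumor and blood tables. Neutrophils came from tumors and blood of the same 3 untreated FVB mice, an inbred strain, after injection of Py7160 cells, a mouse mammary tumor line; the tumors measured about 1 cm when taken 2 to 3 weeks later. Tumor tissue was digested with enzymes, whereas blood was treated with red-cell lysis buffer. Cells were selected with a Ly6G antibody, Ly6G being a surface protein of mouse neutrophils, to a purity near 90%, stained with 1 hashtag antibody per mouse, pooled by tissue, sorted as CD11b+ Ly6G+ cells to over 99% purity, and run as 1 Drop-seq library per tissue, a droplet method that counts RNA molecules by unique molecular identifiers (UMIs). Both groups therefore came from tumor-bearing mice, no mouse without a tumor was compared, and the tissue cannot be told apart from its library or from how its cells were released.

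The product of Slc7a11 is the antiporter that brings cystine into the cell in exchange for glutamate, and that of Slc3a2 is the heavy chain that carries it to the surface. Imported cystine is reduced to cysteine, which glutamate-cysteine ligase, made of the catalytic subunit Gclc and the modifier subunit Gclm, joins to glutamate in the rate-limiting step of glutathione synthesis. Glutathione peroxidases spend glutathione on peroxides and glutathione reductase restores it with NADPH, while thioredoxin reductase and sulfiredoxin keep the parallel thioredoxin and peroxiredoxin system running. Gpx4, which reduces lipid peroxides inside membranes, is the best known barrier to ferroptosis, the iron-driven death by lipid peroxidation that the series is about. In neutrophils the same enzymes face the oxidants of the cells' own respiratory burst.

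Cells were assigned to mice by the hashtag that held at least 70% of a barcode's hashtag counts. This left 841 tumor cells, with 106, 564 and 171 cells in mice 1, 2 and 3, and 1375 blood cells, with 511, 456 and 408 cells in mice 1, 2 and 3. Mice are numbered by hashtag within each tissue, and the same number need not mean the same animal. The sums per mouse held 70612, 385370 and 116862 UMIs in tumor and 436713, 380059 and 330296 UMIs in blood, so tumor mouse 1 was the least precise. The median per cell was 570 to 586 UMIs in tumor mice and 647.5 to 671 UMIs in blood mice. All 12 neutrophil markers were detected in both tissues, at a summed 74729 to 88318 UMIs per 1000000 UMIs of the mouse's sum (CPM) in tumor mice and 180801 to 208362 CPM in blood mice. Most of this sum was S100a8 (mean 34232 CPM in tumor, 89423 CPM in blood) and S100a9 (34115 and 83173 CPM). The listed markers did not all follow it. Cxcr2 was also lower in tumor (866 against 6001 CPM in blood), but Il1r2 (3030 against 80.1 CPM), G0s2 (1340 against 49.5 CPM) and Clec4d (2950 against 808 CPM) were higher. The 12 macrophage and MHC class II markers, all detected in tumor, summed to 439, 4622 and 4664 CPM in tumor mice 1, 2 and 3 and to 259 to 424 CPM in blood mice, where C1qa, C1qb, C1qc, Ms4a7 and Mrc1 stood at 0. The 5 erythroid markers were at 0 in every tumor mouse and summed to 13960 to 22155 CPM in blood mice. Immature neutrophil markers, 7 listed, summed to 1005 to 5509 CPM in tumor mice and 4429 to 11072 CPM in blood mice, and T cell markers, 6 listed, to 8.56 to 38.9 CPM in tumor mice and 112 to 355 CPM in blood mice. Markers of B cells, platelets, epithelium, fibroblasts and endothelium summed to at most 42.8 CPM in any mouse. No cell barcode was shared between the libraries among the cells used.

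The start regions of the 2 members with the highest fold differences are shown first, because they hold the letters of response elements that are known from many tissues. The windows run from 250 bases before to 50 bases after the start site in RefSeq (GRCm38.p6, the build of mm10), and 8 of the 10 members matched to 13 windows. Gclc and Gsr had no window and were not searched. A pair of motifs was searched on both strands. The first was the amino acid response element, TGATGNAA, the kind that the transcription factor ATF4 binds when amino acids run short. The second was the antioxidant response element, TGACNNNGC or TGAGNNNGC, bound by NRF2. Capitals mark the matches, which do not overlap; a match on the opposite strand reads as its reverse complement, and positions are those of the leftmost letter as printed.
Slc7a11, chr3:50443564-50443863, minus strand: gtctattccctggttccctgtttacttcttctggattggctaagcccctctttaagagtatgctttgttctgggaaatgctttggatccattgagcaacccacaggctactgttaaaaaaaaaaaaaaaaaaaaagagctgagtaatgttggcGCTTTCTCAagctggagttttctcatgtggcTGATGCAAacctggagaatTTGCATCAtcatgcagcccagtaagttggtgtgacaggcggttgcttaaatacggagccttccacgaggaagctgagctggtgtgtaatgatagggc
Srxn1, chr2:152105274-152105573, plus strand: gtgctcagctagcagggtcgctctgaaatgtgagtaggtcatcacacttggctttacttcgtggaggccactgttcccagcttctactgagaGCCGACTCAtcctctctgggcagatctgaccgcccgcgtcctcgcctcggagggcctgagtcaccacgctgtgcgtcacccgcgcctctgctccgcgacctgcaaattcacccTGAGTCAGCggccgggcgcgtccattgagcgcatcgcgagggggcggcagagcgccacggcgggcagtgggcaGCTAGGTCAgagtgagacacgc
In the Slc7a11 window TGATGCAA begins 66 bases upstream of the start site on the gene's strand and occurs again, on the opposite strand, at 47 bases upstream. TGAGAAAGC lies on the opposite strand 97 bases upstream. The amino acid response element matched 3.97% of all 32851 windows, and among the 8 members with a window it matched in Slc7a11 alone. The Srxn1 window holds TGAGTCAGC 45 bases upstream, TGAGTCGGC 158 bases upstream on the opposite strand, and TGACCTAGC 28 bases past the start site on the opposite strand. The C form of the antioxidant element matched 12.4% of all windows, the G form 17.6% and either form 27.8%.

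The antioxidant element was also found in 1 window of Gclm and in 1 of the 3 windows of Txnrd1. It thus matched in 4 of the 8 members with a window, in 1 window each. Counted by window that is 4 of 13, near the 27.8% of all windows. Gpx4 and Txnrd1 gave several of the windows without a match, and some Gpx4 windows overlap. The share of all genes with a match was not counted.
Gclm, chr3:122245307-122245606, plus strand: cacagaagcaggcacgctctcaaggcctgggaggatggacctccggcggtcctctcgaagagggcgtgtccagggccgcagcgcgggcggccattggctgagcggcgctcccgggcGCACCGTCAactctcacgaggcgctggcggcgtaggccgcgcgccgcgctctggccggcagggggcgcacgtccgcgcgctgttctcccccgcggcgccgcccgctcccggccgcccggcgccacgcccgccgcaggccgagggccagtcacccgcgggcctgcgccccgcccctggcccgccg
Txnrd1, chr10:82858956-82859255, plus strand: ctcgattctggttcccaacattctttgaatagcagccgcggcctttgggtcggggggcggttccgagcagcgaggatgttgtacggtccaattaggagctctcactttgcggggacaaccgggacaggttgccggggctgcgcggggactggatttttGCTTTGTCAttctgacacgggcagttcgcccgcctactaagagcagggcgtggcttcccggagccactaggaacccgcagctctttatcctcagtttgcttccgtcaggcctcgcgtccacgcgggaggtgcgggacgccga
The Gclm match, TGACGGTGC, begins 134 bases upstream and the Txnrd1 match, TGACAAAGC, 92 bases upstream, both on the opposite strand. Neither motif was found in the windows of Slc3a2, Gpx1, Gpx4 or Sod2. These matches describe letters in a window; binding was not measured, and a motif outside the window would not be seen.

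The cystine importer had far more UMIs in the tumor sums than in the blood sums, although in tumor its level was higher still in barcodes with 20 to 60 UMIs (869 CPM) than in the cells used, summed (592 CPM). Slc7a11 stood at 623, 571 and 642 CPM in tumor mice 1, 2 and 3, against 11.4, 23.7 and 21.2 CPM in blood mice 1, 2 and 3. Every tumor mouse lay far above every blood mouse, and the 3 tumor mice were close to each other. The means were 612 ± 36.8 CPM in tumor and 18.8 ± 6.46 CPM in blood (SD, n = 3 mice each), from 339 and 21 UMIs. The log2 fold change was 5.04 (SE 0.234, approximate 95% interval 4.54 to 5.53; edgeR quasi-likelihood test, adjusted p = 9.90e-12). In bulk sums such as these, more cells with the transcript and more RNA per cell cannot be told apart. The 3 tumor mice also shared 1 library, so RNA common to its droplets would enter all 3 sums. Their closeness, SD and p therefore need not measure agreement between mice, and the part of such RNA was not tested.

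Its heavy chain moved the same way. Slc3a2 had 467, 449 and 265 CPM in tumor mice 1, 2 and 3, against 32.1, 5.26 and 15.1 CPM in blood mice 1, 2 and 3. The groups did not overlap, although tumor mouse 3 was lower than the other tumor mice. The log2 fold change was 4.46 (SE 0.344, interval 3.73 to 5.18; edgeR adjusted p = 7.31e-09). Slc3a2 also serves as the heavy chain of the light chains Slc7a5, Slc7a6, Slc7a7 and Slc7a8, and 0 of these 4 had enough counts to be tested.

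The ligase that follows the importer gave less certain values. Gclc, its catalytic subunit, had 22 tumor UMIs and 5 blood UMIs and did not pass the low-count filter. It had 0, 33.7 and 77.0 CPM in tumor mice 1, 2 and 3, against 4.58, 2.63 and 6.06 CPM in blood mice 1, 2 and 3, so that tumor mouse 1 lay below the blood mice and the groups overlapped. The ratio of the summed levels, tumor over blood, was 8.81, with an exact 95% interval of 3.26 to 29.8 that covers counting error only. Without the filter, where 7.69% of 16032 genes were called higher in tumor and 8.71% lower, its log2 fold change was 2.84 (interval 1.43 to 4.24; edgeR adjusted p = 0.000826). The call was lost when cells with an erythroid marker UMI were left out (2.44, edgeR adjusted p = 0.322). That setting kept only 187 of the 1375 blood cells and 1 of the 5 blood UMIs of Gclc, so it had far fewer counts. Tumor mice 2 and 3, which held the Gclc counts, also had more of the macrophage markers (4622 and 4664 CPM) than tumor mouse 1 (439 CPM). The 36 tumor cells with 3 or more macrophage marker UMIs held 7.44% of all tumor UMIs and 9.09% of the Gclc UMIs. Without those cells the log2 fold change of Gclc was 2.83 (edgeR adjusted p = 0.00105).

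Gclm, the modifier subunit, had 142, 90.8 and 128 CPM in tumor mice 1, 2 and 3, against 93.9, 73.7 and 87.8 CPM in blood mice 1, 2 and 3. Tumor mouse 2 fell within the blood range. The log2 fold change was 0.37 (SE 0.258, interval -0.17 to 0.92; edgeR adjusted p = 0.224), an interval that does not reach a 2-fold difference. With mice assigned by HTODemux it was 0.62 (edgeR adjusted p = 0.0485), without cells holding markers of other cell types it was 0.74 (0.0482), and with at most 5% mitochondrial UMIs it was -0.07 (0.839). Predicted genes overlap the annotated Gclm and Gsr loci, and Eid3 overlaps that of Txnrd1; how reads in such overlaps were counted is not given in the sources used here.

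**Figure D1:**
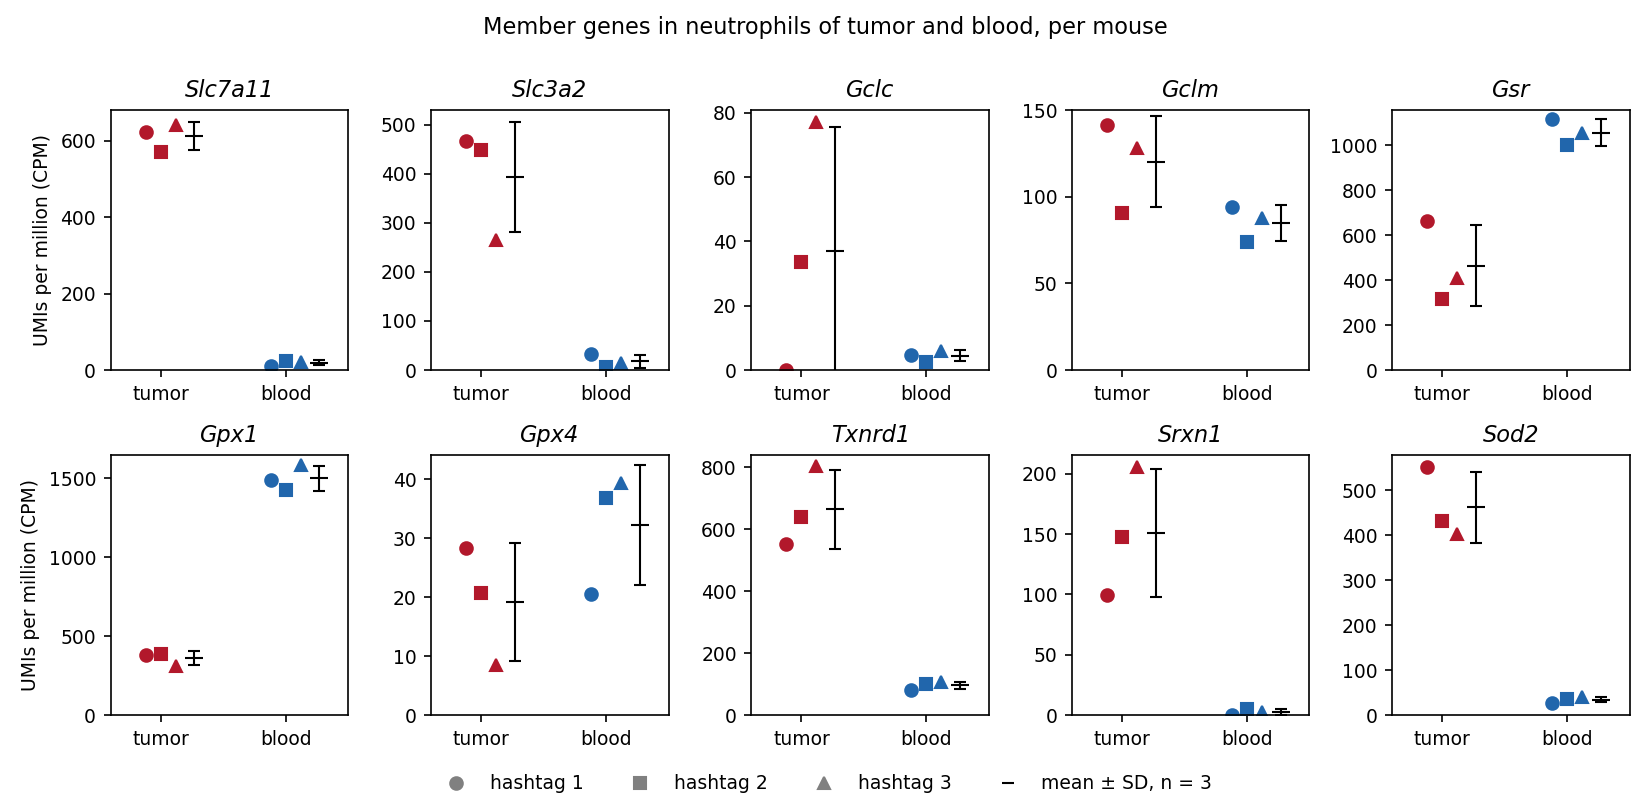
Level of each of the 10 genes in CPM ( vertical axis, scale set per gene) in tumor neutrophils (red, left) and blood neutrophils (blue, right); each symbol is 1 hashtagged mouse and bars give mean ± SD, n = 3. Tumor mice lie above all blood mice for Slc7a11, Slc3a2, Txnrd1, Srxn1 and Sod2, below them for Gsr and Gpx1, and overlap with them for Gclc, Gclm and Gpx4.

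Of the 5 peroxide-removal genes, Gpx1 and Gsr were lower in tumor, Txnrd1 and Srxn1 were higher, and Gpx4 was not called. Gpx1, the main cytosolic glutathione peroxidase, had 382, 389 and 308 CPM in tumor mice 1, 2 and 3, against 1486, 1423 and 1583 CPM in blood mice 1, 2 and 3. The ranges were narrow and far apart. Gpx1 fell by 2.00 on the log2 scale in tumor (SE 0.144, interval -2.31 to -1.70; edgeR adjusted p = 3.15e-09), from 213 UMIs in tumor and 1713 in blood. Gpx1 is also abundant in red cells, and erythroid markers were present in blood only. In the 187 blood cells without any erythroid marker UMI, Gpx1 stood at 1464 CPM (exact 95% counting interval 1244 to 1712), about its level in all blood cells, and Gsr stood at 923 CPM. Those cells were shallower, with medians of 458 to 511.5 UMIs in the 3 mice against 647.5 to 671 UMIs for all blood cells. A marker UMI can thus be missing through depth, and the part of red-cell RNA in these levels was not tested.

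Gsr, glutathione reductase, had 666, 317 and 411 CPM in tumor mice 1, 2 and 3, against 1117, 999.8 and 1054 CPM in blood mice 1, 2 and 3. Every tumor mouse lay below every blood mouse, with tumor mouse 1 the nearest to them. Gsr fell by 1.31 on the log2 scale in tumor (SE 0.183, interval -1.70 to -0.92; edgeR adjusted p = 1.11e-05). Gpx4 was scarce in both tissues, with 11 UMIs in tumor and 36 in blood. It had 28.3, 20.8 and 8.56 CPM in tumor mice 1, 2 and 3, against 20.6, 36.8 and 39.4 CPM in blood mice 1, 2 and 3, and the groups overlapped. Its log2 fold change was -0.66 (SE 0.478, interval -1.67 to 0.35; edgeR adjusted p = 0.248), a width that allows anything from a fall of more than 3-fold to a small rise. The 36 tumor cells with macrophage markers held 27.3% of its tumor UMIs and 13.6% of those of Gpx1, and reads shared with its processed copies, Gpx4-ps1 and Gpx4-ps2, may have been counted in an unknown way.

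Txnrd1 and Srxn1, which of the 10 genes belong to the thioredoxin system, were both higher in tumor. Txnrd1, the cytosolic thioredoxin reductase, had 552, 638 and 804 CPM in tumor mice 1, 2 and 3, against 82.4, 99.98 and 106 CPM in blood mice 1, 2 and 3. The groups were well apart, with the spread larger among the tumor mice. The log2 fold change was 2.84 (SE 0.186, interval 2.44 to 3.23; edgeR adjusted p = 8.96e-10). Srxn1, sulfiredoxin, which repairs peroxiredoxins that have been over-oxidised, had 99.1, 148 and 205 CPM in tumor mice 1, 2 and 3, against 0, 5.26 and 3.03 CPM in blood mice 1, 2 and 3. It was nearly absent from the blood sums, with 88 UMIs in tumor and 3 in blood. The ratio of the summed levels was 58.7, with an exact 95% counting interval of 19.5 to 290.3, and the edgeR test gave an adjusted p of 6.46e-08.

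Sod2, the mitochondrial manganese superoxide dismutase, makes hydrogen peroxide from superoxide rather than removing it. It had 552, 431 and 402 CPM in tumor mice 1, 2 and 3, against 27.5, 36.8 and 39.4 CPM in blood mice 1, 2 and 3. The groups did not overlap. The log2 fold change was 3.73 (SE 0.221, interval 3.26 to 4.198; edgeR adjusted p = 2.36e-10).

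Of the 10 genes, 9 passed the low-count filter; 5 were called higher in tumor, 2 lower and 2 neither way. Across all 3674 genes tested 30.2% were called higher and 29.8% lower, and the median log2 fold change was -0.04. The 3 tumor and 3 blood mice did not overlap for 7 of the 9 genes that passed the filter, against 63.0% of all genes tested. The tissues differed at most genes, so the count of members called is no mark of this pathway; sizes and directions carry the description.

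Cells with markers of other lineages were left out in turn, settings chosen after the data had been seen. Without the cells that held 3 or more macrophage marker UMIs, the log2 fold changes were 5.09 for Slc7a11, 4.54 for Slc3a2, 2.79 for Txnrd1, 5.69 for Srxn1 and 3.76 for Sod2, and -2.13 for Gpx1 and -1.28 for Gsr. The same 7 genes were thus called, with nearly the same sizes. Within those 36 tumor cells Slc7a11 stood at 329 CPM (exact 95% counting interval 180 to 551), against 603 CPM (530 to 683) in the 635 tumor cells without any macrophage marker UMI. Gpx1 went the other way, at 681 CPM (456 to 977) in the 36 cells and 305 CPM (254 to 364) in the 635. Most of the 36 cells came from tumor mouse 2. Without them tumor mice 1, 2 and 3 held 105, 534 and 166 cells, against 106, 564 and 171. These intervals pool the mice and cover counting error only. Without the blood cells that held an erythroid marker UMI, which left 187 of 1375, the log2 fold changes were 5.02 for Slc7a11, 3.87 for Slc3a2, 3.06 for Txnrd1 and 3.32 for Sod2, and -1.92 for Gpx1 and -1.03 for Gsr, all called. Srxn1, Gclm and Gpx4 then had too few counts to be tested.

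**Figure D2:**
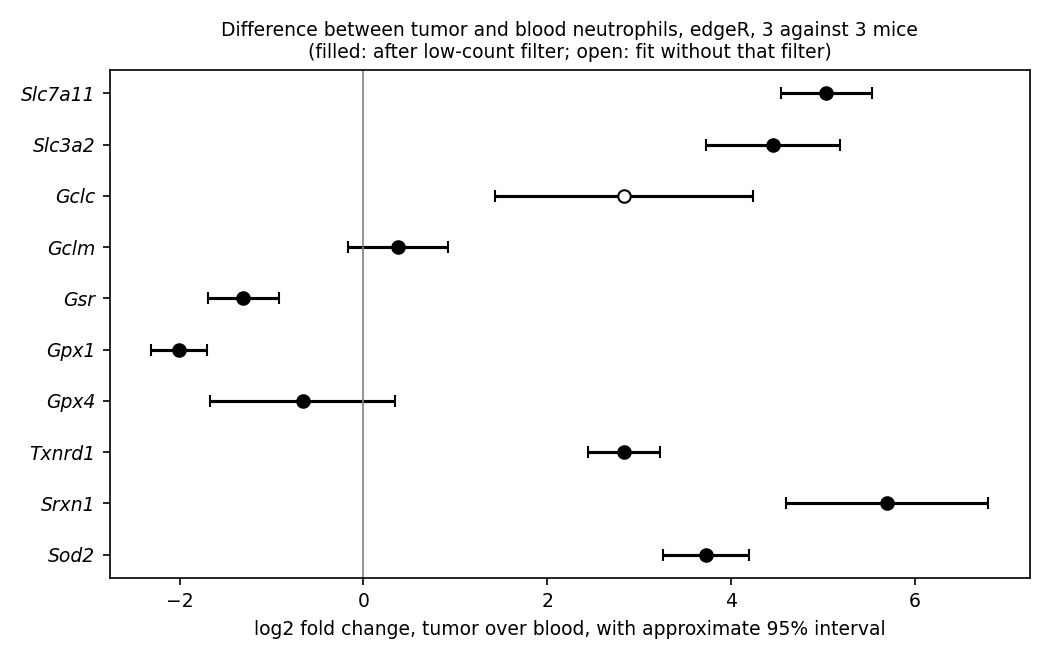
Log2 fold change of each gene, tumor over blood (horizontal axis), from edgeR with an approximate 95% interval, n = 3 mice per tissue; the open point, Gclc, comes from the fit without the low-count filter. Slc7a11, Slc3a2, Txnrd1, Srxn1 and Sod2 lie right of 0 and Gsr and Gpx1 left of it, while the intervals of Gclm and Gpx4 cross it.

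Set side by side, import with synthesis and peroxide removal went opposite ways as sums, which the most abundant genes of each group dominate and which carry no test here. Slc7a11, Slc3a2, Gclc and Gclm together summed to 1232, 1144 and 1112 CPM in tumor mice 1, 2 and 3, against 142, 105 and 130 CPM in blood mice 1, 2 and 3, a ratio of means of 9.24. Gsr, Gpx1, Gpx4, Txnrd1 and Srxn1 together summed to 1728, 1513 and 1737 CPM in tumor mice, against 2707, 2565 and 2785 CPM in blood mice, a ratio of 0.618. Import and synthesis thus made up 41.2% ± 2.04 of the UMIs of both groups in tumor and 4.46% ± 0.522 in blood (SD, n = 3 mice each). The import sum is carried by Slc7a11 and Slc3a2; the ligase genes add little to it.

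The 5 peroxide-removal genes can also be summed by system, a grouping made after the values had been seen, which the wider lists given later do not follow gene by gene. Gsr, Gpx1 and Gpx4 summed to 843 ± 202 CPM in tumor and 2587 ± 113 CPM in blood, a ratio of 0.326. Txnrd1 and Srxn1 summed to 816 ± 181 CPM in tumor and 98.9 ± 14.4 CPM in blood, a ratio of 8.25. The thioredoxin sum over the glutathione sum was 1.03 ± 0.395 in tumor and 0.0383 ± 0.00606 in blood. The total over all 10 genes was 3284 ± 214 CPM in tumor and 2846 ± 126 CPM in blood, a ratio of 1.15, and so differed far less than the make-up.

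**Figure D3:**
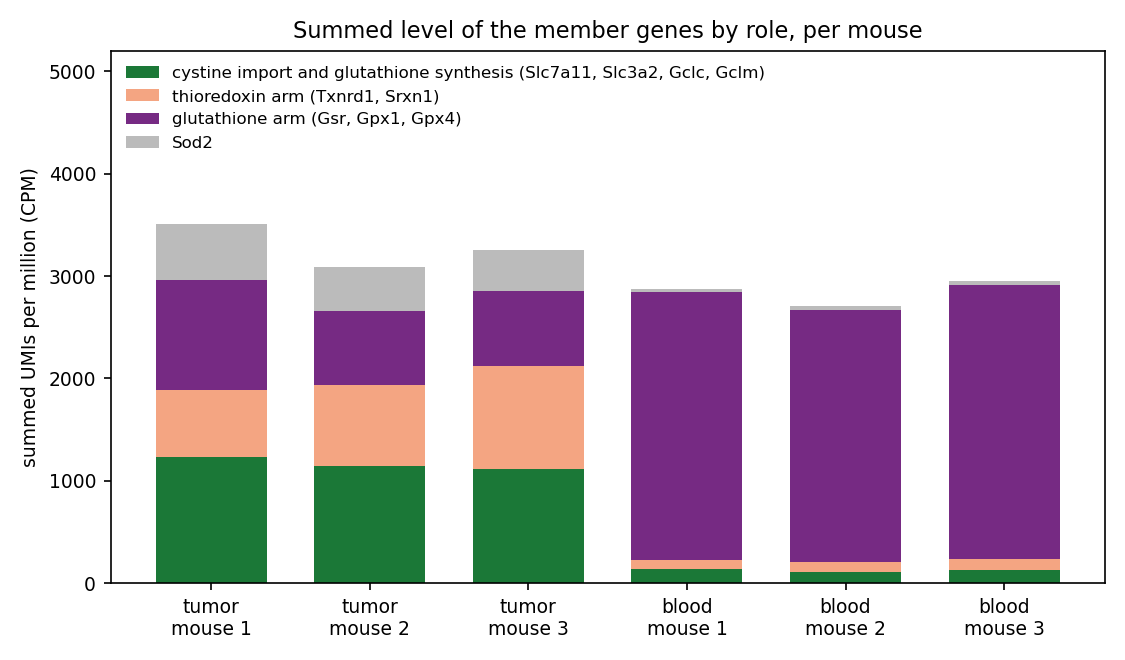
Summed CPM (vertical axis) of the 10 genes in each of the 3 tumor mice (left) and 3 blood mice (right), stacked by role. The total runs from 3088 to 3512 CPM in tumor and from 2707 to 2955 CPM in blood, with import and synthesis at the base of the bar and the thioredoxin genes above it larger in tumor, and the glutathione genes larger in blood.

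Counts per cell were low, so that the share of cells with a UMI depends on depth. At an equal 400 UMIs per cell, which left 717 tumor and 1228 blood cells and left out 124 and 147, Slc7a11 was detected in 19.7% ± 1.74 of tumor cells and 0.762% ± 0.180 of blood cells (SD, n = 3 mice each). Without equalising depth it was detected in 221 of 841 tumor cells (26.3%) and 20 of 1375 blood cells (1.45%), and the most UMIs in a cell were 5 in tumor and 2 in blood. Txnrd1 was detected in 19.9% ± 2.91 of tumor cells and 3.46% ± 0.822 of blood cells at equal depth. Sod2 was detected in 13.6% ± 0.734 of tumor cells and 1.51% ± 0.657 of blood cells, and Srxn1 in 5.77% ± 1.26 of tumor cells and 0.113% of blood cells. Gpx1 was detected in 10.8% ± 1.92 of tumor cells and 40.4% ± 1.29 of blood cells, and Gsr in 15.4% ± 5.21 of tumor cells and 33.9% ± 1.91 of blood cells. For these genes and for Slc3a2 and Gclm the 3 tumor and 3 blood mice did not overlap, which gave p = 0.1 in an exact two-sided permutation test, the smallest that 3 against 3 allows. How many of all genes separate in this measure was not counted, but in CPM 63.0% of all genes tested did. At equal depth the exact permutation p was 0.4 for Gclc and 0.2 for Gpx4. Without equalising depth the Gclm shares of the mice overlapped (exact permutation p = 0.5). Some UMI of the 10 genes was present in 628 tumor cells (74.7%) and 1090 blood cells (79.3%).

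Free RNA in the droplets bears on these shares. Barcodes with 20 to 60 UMIs, far below the cells used, may hold such RNA or fragments of cells. In tumor Slc7a11 stood at 869 CPM in them (exact 95% counting interval 761 to 988), above its level in cells, and a cell of 400 UMIs filled from them would hold a Slc7a11 UMI in 29.4% of draws. For Txnrd1 that share was 24.0%, again above the share in cells. A Slc7a11 or Txnrd1 UMI therefore does not mark a single tumor cell as expressing the gene, and the difference between tissues is one between libraries as a whole. Free RNA would enter the sums of all mice pooled in a library. For Slc7a11 and Txnrd1 these sums need not be independent replicates, and their SDs and edgeR p-values need not measure agreement between mice. For Sod2 the share drawn was 9.52% in tumor, for Srxn1 4.09% and for Slc3a2 8.84%, each below the mean share in tumor cells, although Slc3a2 in tumor mouse 3, at 8.16%, lay under it. For Gpx1 the drawn share was 2.21% in tumor and 11.01% in blood, well below the share in cells of either tissue, so its UMIs were concentrated in cells. It also lay below all mice of both tissues for Sod2 (0.323% in blood), Gclm (2.94% in tumor, 1.29% in blood) and Gpx4 (0.149% in tumor, 0.646% in blood). For Gclm tumor mouse 2, at 3.01%, was only just above it, and Gpx4 had few UMIs. For Gsr the drawn share was 12.7% in tumor, below tumor mice 1 and 3 (21.3% and 13.2%) but above tumor mouse 2 (11.6%), and 24.7% in blood, below all 3 blood mice (31.9% to 35.6%).

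**Figure D4:**
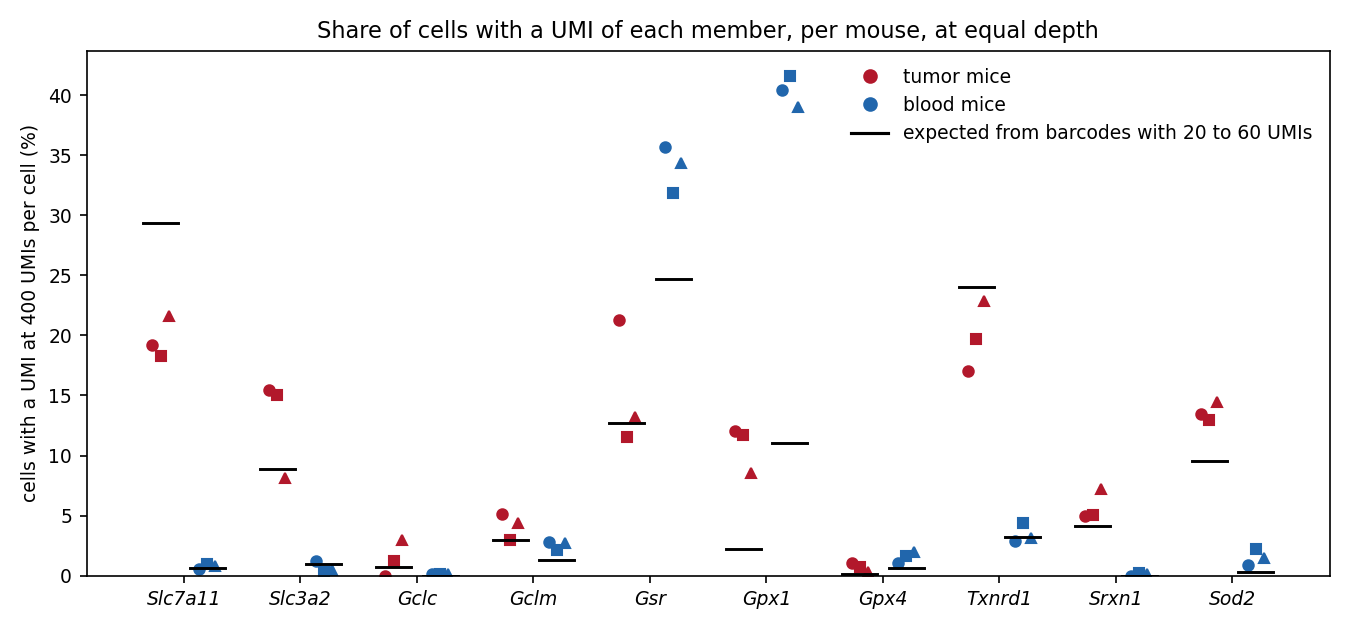
Share of cells with a UMI of each gene at 400 UMIs per cell (percent, vertical axis) for the 3 tumor mice (red, left of each pair) and the 3 blood mice (blue, right). Black lines give the share that droplets filled from barcodes with 20 to 60 UMIs of that library would show. The tumor line lies above the tumor mice for Slc7a11 and Txnrd1. For Gclm, Gpx1, Gpx4 and Sod2 the line of each tissue lies below all of its mice.

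Other genes of the same chemistry were read from lists that name 69 genes; 63 were in the tables and 21 had enough counts to be tested, with 6 higher in tumor, 11 lower and 4 called neither way. Their median log2 fold change was -0.44, beside -0.04 over all genes tested, of which 30.2% were called higher and 29.8% lower. In the list of further peroxidases, transferases and glutaredoxins, 4 of 20 genes were tested, none of them a peroxidase; 3 were lower and 1 higher, beside 29.8% lower and 30.2% higher over all genes tested. Mgst1, a microsomal glutathione transferase, averaged 116 ± 26.6 CPM in tumor mice and 330 ± 41.0 CPM in blood mice (SD, n = 3 mice each). Its log2 fold change was -1.40 at an adjusted p of 2.55e-05 in edgeR, while the glutaredoxins Glrx2 and Glrx had log2 fold changes of -1.45 and -0.67. Gstm1, a cytosolic transferase, was the exception with 38 UMIs in tumor and 2 in blood, a ratio of 38.0 (exact 95% counting interval 9.83 to 325.5). In glutathione turnover 2 of 14 genes were tested. Ggct, which breaks down gamma-glutamyl peptides, averaged 166 ± 56.6 CPM in tumor mice and 7.93 ± 4.59 CPM in blood mice, 4.37 on the log2 scale with an adjusted p of 9.97e-08 in edgeR. The surface peptidase Ggt5 had a log2 fold change of -1.37.

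The thioredoxin list had 10 of 20 genes tested, with 3 higher in tumor, 4 lower and 3 called neither way, and a median of -0.27. Over all genes tested 30.2% were called higher and 29.8% lower, so these counts are near the general share. Txnl1, a thioredoxin-like protein, Prdx6 and Prdx1, both peroxiredoxins, were higher, with log2 fold changes of 3.74, 2.77 and 2.63. Prdx6 averaged 333 ± 32.6 CPM in tumor mice and 50.5 ± 10.1 CPM in blood mice (edgeR adjusted p = 1.05e-08). Prdx1, a substrate of sulfiredoxin, averaged 100.3 ± 56.6 CPM in tumor mice and 20.04 ± 7.73 CPM in blood mice (edgeR adjusted p = 3.08e-05), with a wide spread among tumor mice whose macrophage markers also differed; their part in it was not tested. The lower genes included Txnip, an inhibitor of thioredoxin, at 135 ± 9.32 CPM in tumor mice and 607 ± 107 CPM in blood mice (-2.12 on the log2 scale, edgeR adjusted p = 6.23e-08), Sesn2 (-1.36) and Msrb1, a methionine sulfoxide reductase (-1.26). Txn1, the thioredoxin that Txnrd1 reduces, averaged 2215 ± 215 CPM in tumor mice and 2280 ± 183 CPM in blood mice, a log2 fold change of -0.02 with an interval of -0.28 to 0.23 (edgeR adjusted p = 0.889). Sod1, the cytosolic superoxide dismutase, averaged 56.5 ± 13.6 CPM in tumor mice and 20.2 ± 1.62 CPM in blood mice, 1.64 on the log2 scale (edgeR adjusted p = 0.00110).

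NADPH drives both glutathione reductase and thioredoxin reductase, and 4 of the 8 listed genes of its supply were tested. Of these, 3 were lower in tumor and 1, Me2, was not called, beside 29.8% of all genes tested called lower. G6pdx and Pgd, dehydrogenases of the pentose phosphate pathway, had log2 fold changes of -2.75 and -1.93, and the NAD kinase Nadk one of -1.51. G6pdx averaged 30.5 ± 10.4 CPM in tumor mice and 184 ± 30.0 CPM in blood mice (edgeR adjusted p = 1.21e-06), and Pgd at 116 ± 7.17 CPM in tumor mice and 470 ± 67.2 CPM in blood mice (edgeR adjusted p = 2.91e-07).

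**Figure D5:**
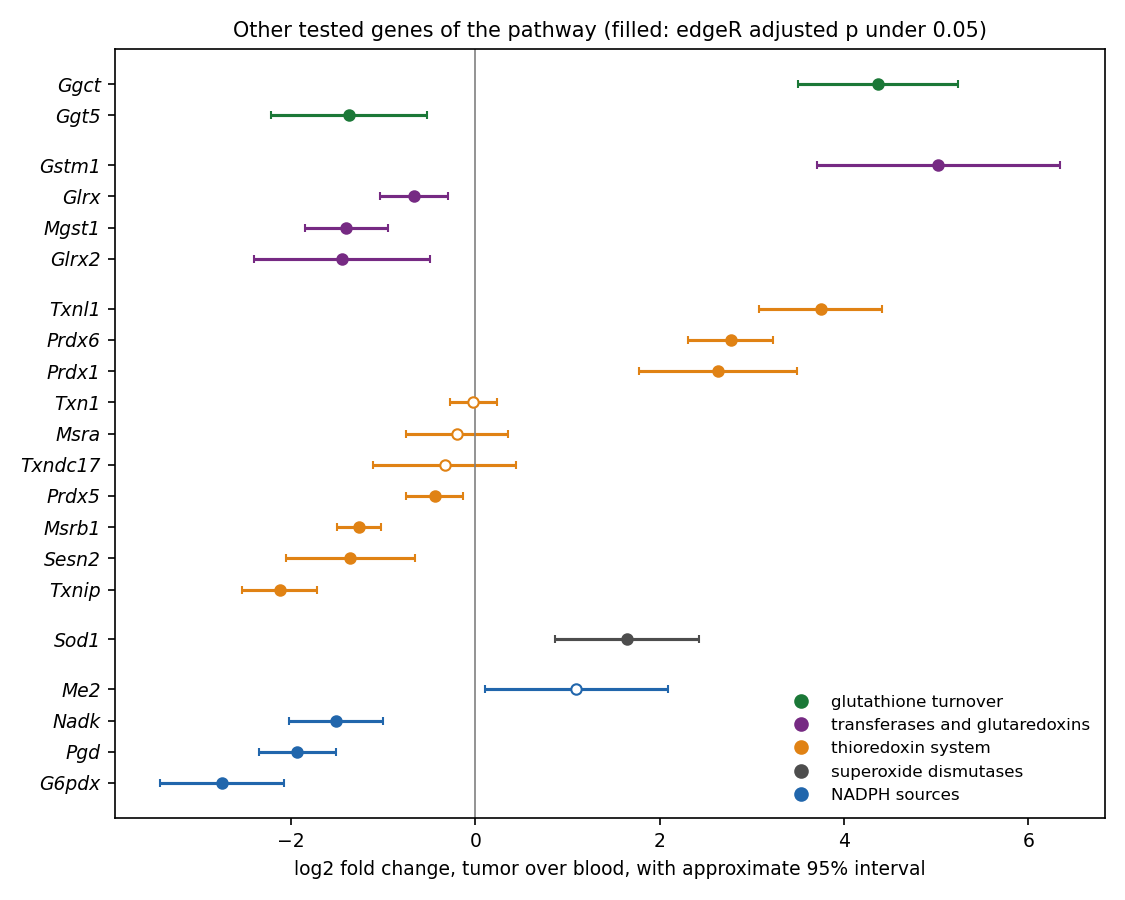
Log2 fold change, tumor over blood (horizontal axis), with approximate 95% interval for the 21 other tested genes of these lists, coloured by list; filled points passed an edgeR adjusted p of 0.05, n = 3 mice per tissue. Ggct, Gstm1, Txnl1, Prdx6, Prdx1 and Sod1 lie to the right, and the NADPH genes G6pdx, Pgd and Nadk and the thioredoxin inhibitor Txnip are among those farthest left.

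The genes whose levels ran closest to those of Slc7a11 over the 6 sums, by Euclidean distance in log2 CPM, were M6pr (0.730), F10 (0.788), Nfkbid (0.847), Gla (0.882) and Cd274 (0.885). M6pr averaged 483 CPM in tumor mice and 18.9 CPM in blood mice, and Cd274, which encodes PD-L1, with 797 CPM in tumor mice and 14.9 CPM in blood mice. With 3 sums per tissue this closeness describes mainly the size of the difference between tissues.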

How the data were processed

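The authors deposited raw UMI counts per gene and barcode and raw hashtag counts per barcode, 1 table of each per tissue. The submitters' processing notes name STAR and mm10; gene counter and annotation: not given in the sources used here. Barcodes with at least 200 detected genes, at most 15% mitochondrial UMIs, a minimum of 10 hashtag counts and 1 hashtag holding 70% of these or more were kept, which leaves out barcodes with mixed hashtags (106 in tumor, 159 in blood); no other doublet caller was run. UMIs were summed per mouse and tissue and compared with edgeR 4.0.16 (R 4.3.3): quasi-likelihood test, default low-count filter, TMM scaling, tissue as the only term, Benjamini-Hochberg adjustment over the 3674 genes tested, threshold 0.05. These genes hold 93.9% of the UMIs. SEs and intervals are approximate, from the fold change and its F statistic. CPM are UMIs per 1000000 UMIs of a mouse's sum. Shares at equal depth are expectations over all draws of 400 UMIs. Counting intervals and low-count ratios cover counting error only. The test was tried on simulated counts (3659 genes): it found 60.2% of 98 genes set to change 2-fold, 99 of the 99 set to change 4-fold, and wrongly called 0.144% of 3462 others. In that simulation few genes changed, about as many up as down, and every gene had the same dispersion. In the data most genes were called, so these rates need not hold for the results given here. All 10 members are named. Of each other list at most the 3 highest and 3 lowest called genes are named, and the 5 genes nearest to Slc7a11. Outside this rule, Txn1 and Me2, which were tested but not called, and the untested partner light chains of Slc3a2 are named as well. Members, lists and tests were chosen with earlier results of these data known. DESeq2 1.42.0 and HTODemux (Seurat 5.3.0, 4 centres, quantile 0.99) were alternatives. Promoter windows and gene overlaps came from RefSeq tables of GRCm38.p6.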

Additional observations from a re-analysis of the deposited data

Results flagged for a closer look

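Transcripts of the 5 genes called higher in tumor were also present, above their level in blood, in tumor barcodes that the comparisons did not use. The same held for Gclc and Gclm, from 20 tumor UMIs or fewer in each kind of barcode. In the 5945 tumor barcodes with 20 to 60 UMIs, Slc7a11 stood at 869 CPM, against 16.2 CPM in the 6739 such blood barcodes. Slc3a2 had 231 CPM in tumor barcodes and 24.3 CPM in blood barcodes, and Txnrd1 had 687 CPM in tumor barcodes and 81.0 CPM in blood barcodes. Srxn1 stood at 104 CPM in tumor and at 0 in blood, where the exact 95% upper bound was 14.9 CPM, and Sod2 at 249.99 CPM in tumor barcodes and 8.10 CPM in blood barcodes. In the 106 tumor cells without a single hashtag, Slc7a11 stood at 423 CPM, against 8.02 CPM in the 159 such blood cells. In these cells Slc3a2 stood at 435 CPM in tumor cells and 24.1 CPM in blood cells, and Txnrd1 at 725 CPM in tumor cells and 80.2 CPM in blood cells. Srxn1 stood at 121 CPM in tumor and at 0 in blood, where that bound was 29.6 CPM, and Sod2 at 399 CPM in tumor cells and 16.0 CPM in blood cells. These are sums over 1 library per tissue, with no replicate, and the differences were not tested.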

How the results depend on the processing

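Leaving out 1 of the 6 sums at a time, 3701 to 4230 genes were tested. Genes called higher in tumor ran from 833 to 1215 and those lower from 849 to 1235, and the members called were 5 to 6 higher and 2 lower. Over all 24 alternatives 4 to 6 members were called higher and 2 lower, against 5 and 2. The share of all genes called differed widely between these settings. Without the low-count filter it was 7.69% higher and 8.71% lower of 16032 genes, and without cells holding an erythroid marker UMI 338 and 289 of 914 genes. The steady member counts are thus no mark of this pathway. At most 5% mitochondrial UMIs gave 740 genes higher and 674 lower (2102 tested), 400 UMIs per cell gave 671 and 705 (2148 tested), leaving out cells with an erythroid marker UMI gave 338 and 289 (914 tested), and leaving out hashtag 2 in both tissues gave 733 higher (2785 tested); the last 2 were chosen after seeing the data. Fewer genes passed the filter in each. DESeq2 gave 880 higher and 888 lower. The log2 fold change of Gclm turned to -0.0728 with at most 5% mitochondrial UMIs, and the Gpx4 difference in share of cells turned to 0.389 percentage points at 600 UMIs per cell, against -0.834; the cause was not tested. Gpx4 passed the filter in 12 alternatives only. Deviations of same-numbered tumor and blood sums from their tissue mean had r = 0.0226, 0.00893 and -0.0228, and those of different-numbered sums r from -0.0501 to 0.0512. With 3 sums per tissue and few UMIs for many genes, these values cannot decide whether hashtag numbers match. The labels do not say that a hashtag marks the same mouse in both tissues. With the hashtag number as a replicate block, 993 genes were higher and 980 lower, and the members called stayed at 5 and 2. In tumor the hashtag 2 background was high (median 194 counts over all barcodes, against 17 and 26 for hashtags 1 and 3). Leaving out barcodes shared between libraries could not change a value, as 0 of the cells used shared one.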
